A study of Mus musculus with 6 samples.

Results

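The chemokines that draw monocytes out of the blood and the cytokines that keep macrophages alive are described here in single cells from 2 libraries that differ in the Bmal1 vector they are labelled with. The set holds 9 genes taken by their symbols out of 31053 genes in each matrix. These were the chemokine genes Ccl2, Ccl7, Ccl8, Ccl12 and Ccl24, the chemokine receptor gene Ccr2, the growth factor genes Csf1 and Il34 and their receptor gene Csf1r. All 9 were listed in both matrices.

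Cells of the YUMM2.1 source were captured by droplet single-cell RNA sequencing, which counts the 3' ends of transcripts by unique molecular identifier (UMI), and their hashtag antibodies tell pooled replicates apart. The groups compared were Empty vector, with hashtags h1, h7 and h8, and Bmal1 WT, with hashtags h3, h5 and h9, each run as 1 library. YUMM2.1 is a mouse melanoma line with mutant Braf, 1 lost copy of Cdkn2a and stabilized β-catenin among its alterations, which both groups share. The study made its Empty vector and wild-type Bmal1 lines by lentiviral transduction and sorting on green fluorescence, so each line is a population rather than 1 clone. Bmal1 is the clock transcription factor encoded by Arntl. The labels say neither whether cells came from culture or from tumours nor whether hashtags mark separate animals, so each p-value below measures only the spread between hashtagged samples, which may be technical. Because each group was 1 library, group and library cannot be told apart.

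Classical monocytes carry CCR2 and follow its ligands, CCL2, CCL7 and CCL12, from the marrow into inflamed tissue and tumours. Mouse CCL8 acts mainly through CCR8, and CCL24 is an eotaxin that acts through CCR3 on eosinophils. Once in the tissue, monocytes and macrophages depend on the receptor tyrosine kinase CSF1R, for which CSF1 and IL-34 are the 2 ligands.

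The genes of the 4 monocyte chemoattractant proteins lie together on chromosome 11 (GRCm38, plus strand): Ccl2 at chr11:82035571-82037453, Ccl7 at chr11:82045712-82047525, Ccl12 at chr11:82101845-82103400 and Ccl8 at chr11:82115185-82116799. Ccl24 lies at chr5:135569937-135573049 (minus strand), Ccr2 at chr9:124101950-124113557 (plus strand), Csf1 at chr3:107741048-107760469 (minus strand) and Il34 at chr8:110741829-110805924 (minus strand). Ccl2 overlaps the gene model Gm17268 on the other strand, and Il34 overlaps Gm15894 and Gm15895 on the other strand. The sources used here do not say whether counting used strand, so reads from such overlaps may not be told apart. The longest run shared by 2 chemokine transcripts was 23 nt, between Ccl2 and Ccl7, and the other pairs shared runs of 10 to 17 nt.

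The 250 bases before the start site are shown from RefSeq (GRCm38.p6) for Ccl8, Ccl12 and Csf1. Ccl8 and Ccl12 are neighbours, both counted in macrophage- or monocyte-like cells below, with Ccl8 also in fibroblast-like cells. Csf1 was counted in more kinds of cell. Capitals mark a TATAAA match in the chemokine promoters and, in Csf1, matches on either strand to an NF-κB-type pattern of 3 G, 5 bases of any kind and 2 C.
Ccl8 (chr11:82114935-82115184, plus strand): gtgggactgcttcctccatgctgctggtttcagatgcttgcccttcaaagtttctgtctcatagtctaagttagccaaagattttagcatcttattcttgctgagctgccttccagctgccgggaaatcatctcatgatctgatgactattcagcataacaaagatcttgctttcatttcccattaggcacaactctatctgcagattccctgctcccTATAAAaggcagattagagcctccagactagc
Ccl12 (chr11:82101595-82101844, plus strand): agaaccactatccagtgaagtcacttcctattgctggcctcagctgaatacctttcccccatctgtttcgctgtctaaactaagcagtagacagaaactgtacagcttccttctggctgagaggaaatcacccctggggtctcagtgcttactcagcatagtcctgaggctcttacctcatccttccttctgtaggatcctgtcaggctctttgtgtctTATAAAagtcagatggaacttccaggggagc
Csf1 (chr3:107760470-107760719, minus strand): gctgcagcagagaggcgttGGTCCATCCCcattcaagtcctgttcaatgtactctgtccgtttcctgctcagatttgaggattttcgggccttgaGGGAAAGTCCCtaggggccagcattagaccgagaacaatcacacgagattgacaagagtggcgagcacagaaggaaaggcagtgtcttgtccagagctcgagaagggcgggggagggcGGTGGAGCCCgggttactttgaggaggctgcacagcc
The TATAAA match, a motif added after the sequences were seen, ended 26 bases before the Ccl8 start and 25 bases before that of Ccl12, and 12.4% of 32851 promoter windows of this length held it on either strand. The Ccl8 and Ccl12 windows were identical at 150 of 230 aligned bases (65.2%), and their starts lie 13340 bases apart. The Csf1 window held 4 matches to the NF-κB-type pattern, of which 2 overlap each other, and 45.8% of all windows held at least 1. The E-box CACGTG, bound by clock factors, and TGANTCA, the AP-1 motif, were in none of the 3 windows and in 6.02% and 6.75% of all windows. A match describes letters only. Promoters of the other genes of the set are not shown.

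After the cell filter, 3978 Empty vector and 2386 Bmal1 WT cells remained, with medians of 5094 and 7570.5 UMIs. Exactly 1 hashtag was carried by 3222 and 1621 of them, 326 to 1403 per replicate with 4655548 to 11873279 UMIs each, and 5 barcodes occurred in both libraries. Levels are given in CPM, the gene's UMIs per 1000000 gene UMIs of the same cells, and replicates are listed in the order h1, h7, h8 and h3, h5, h9. In melanoma-like cells, Arntl was at 55.5, 111 and 52.8 CPM in Empty vector and at 49.6, 60.9 and 60.5 CPM in Bmal1 WT. The groups overlapped, so the libraries are named by their labels here, although a 3' count need not read a vector transcript.

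Cells were sorted into gates by clustering and fixed marker genes. The macrophage- or monocyte-like gate held 751 Empty vector and 427 Bmal1 WT cells, the dendritic-cell-like gate 506 and 308, the fibroblast-like gate 142 and 207, and the melanoma-like gate 111 and 328. All 9 fibroblast markers and all 11 macrophage or monocyte markers were detected in their gates. Of 10 melanoma markers, Mlana and Tyrp1 were at 0 in the melanoma-like gate, which was named by Sox10, Erbb3, S100b, Mcam and 1 more marker. Hashtagged cells were few in some gates, with 8 to 19 fibroblast-like cells per replicate and 5 melanoma-like cells in Empty vector h7.

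Each ligand had its own pattern of sources (shown in the map of levels by gate). Ccl2 and Ccl7 were counted in macrophage- or monocyte-like and fibroblast-like cells and in a few melanoma-like cells. They were also counted in the few mast-cell- or basophil-like cells of Empty vector. Ccl12 and Ccl24 were nearly all in macrophage- or monocyte-like cells, and Il34 was in melanoma-like and fibroblast-like cells. Csf1 was in these 3 gates and in T-cell-like cells. Ccr2 was counted in macrophage- or monocyte-like, NK-cell-like, dendritic-cell-like and T-cell-like cells, and Csf1r was highest in the macrophage- or monocyte-like gate.

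**Figure D1:**
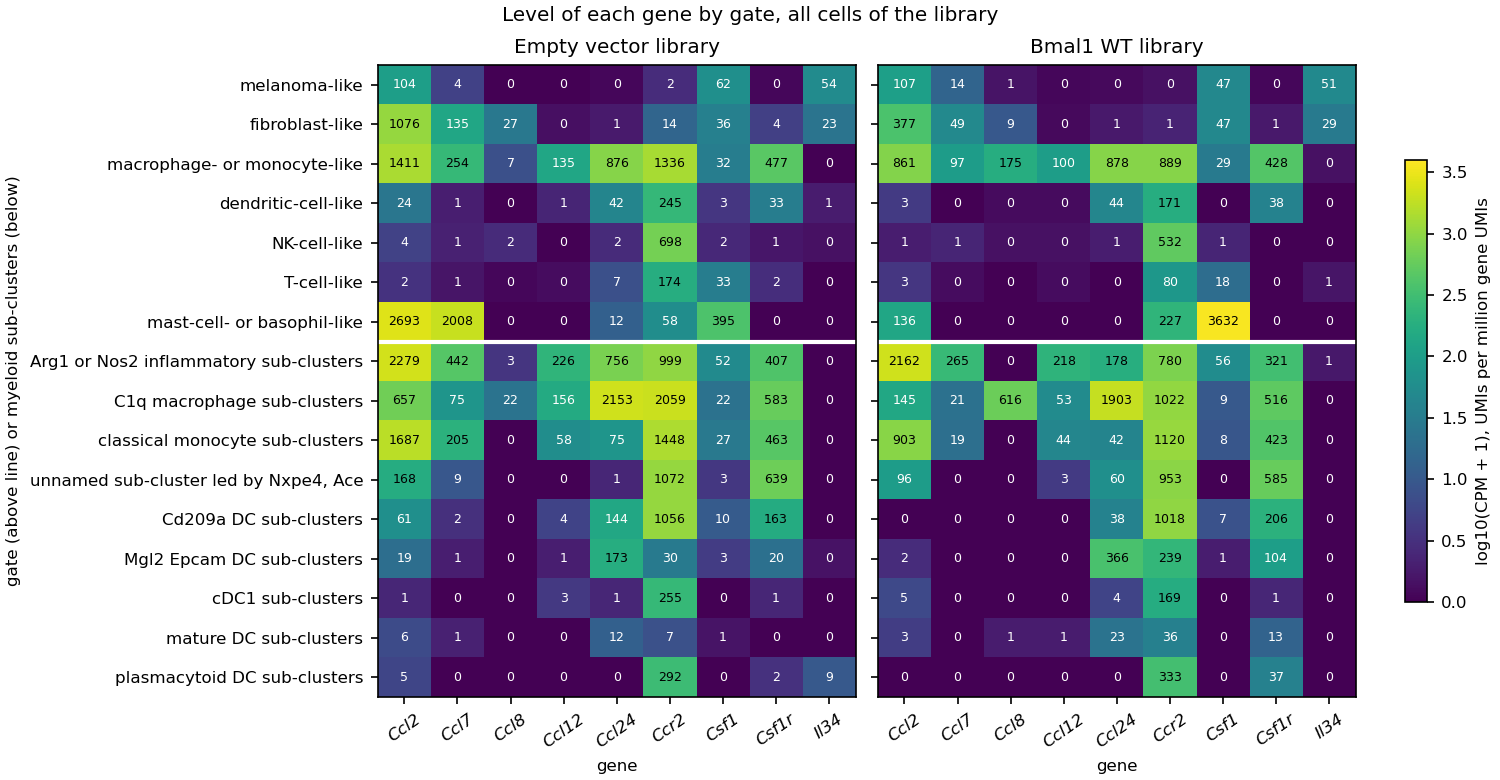
Level of each of the 9 genes (columns) in each gate and each set of myeloid sub-clusters (rows), for all cells of the Empty vector library (left) and the Bmal1 WT library (right). Numbers are CPM and the colour is log10(CPM + 1). Il34 reads 54 and 51 in melanoma-like cells and 0 in macrophage- or monocyte-like cells.

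Ccl2, the main CCR2 ligand, stood at 1730.0, 218 and 1425 CPM in the macrophage- or monocyte-like cells of Empty vector and at 951, 600.5 and 1076 CPM in those of Bmal1 WT. The groups overlapped, with Empty vector h7 below every other replicate. The mean was 1125 ± 799 CPM against 876 ± 247 (SD, n = 3 each), a log2 fold change of Bmal1 WT over Empty vector of -0.37 (SE 0.59), with an edgeR quasi-likelihood Benjamini-Hochberg adjusted p of 0.834. In fibroblast-like cells Ccl2 stood at 1869.8, 779.8 and 333 CPM in Empty vector and at 54.0, 829 and 76.9 CPM in Bmal1 WT. The Bmal1 WT replicates h3 and h9 were below all of Empty vector and h5 was not (log2 fold change -1.66, SE 0.99, edgeR adjusted p = 0.769). In melanoma-like cells it stood at 10.6, 0 and 285 CPM in Empty vector and at 529, 106 and 7.71 CPM in Bmal1 WT, again with overlap (log2 fold change 0.79, SE 1.28, edgeR adjusted p = 1.0).

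Within each group the spread of Ccl2 was wide enough that the macrophage- or monocyte-like and fibroblast-like levels could not be put in order, at 1125 ± 799 and 994 ± 791 CPM for Empty vector, and at 876 ± 247 and 320.1 ± 441 CPM for Bmal1 WT. Melanoma-like cells came next at 98.5 ± 162 and 214 ± 277 CPM, ranges that overlap those of fibroblast-like cells in Bmal1 WT. T-cell-like cells, which should lack Ccl2, gave 2.37 CPM in the Empty vector library (16 UMIs, Poisson 95% interval 1.36 to 3.85), a guide to free RNA. Intervals of this kind cover counting error only.

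The melanoma-like Ccl2 came from very few cells (shown in the plot of how few cells held the Ccl2 UMIs). In the Empty vector library 1 cell held 86.3% of 611 UMIs, and in the Bmal1 WT library 1 cell held 44.3% of 1909. The 10 cells with most Ccl2 held 92.8% of the Ccl2 UMIs of the gate over both libraries. These cells were deep, with a median of 150926.5 UMIs against 35400 in the other 429, 2 of the 10 and 18 of the others carried several hashtags, and their summed macrophage or monocyte markers were at 3.55 CPM against 7.20. Without Bmal1 WT h3 the log2 fold change was -1.05, and without Empty vector h8 it was 4.44. In fibroblast-like cells the 10 cells with most Ccl2 held 62.2% of its UMIs, and in macrophage- or monocyte-like cells they held 23.5%.

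**Figure D2:**
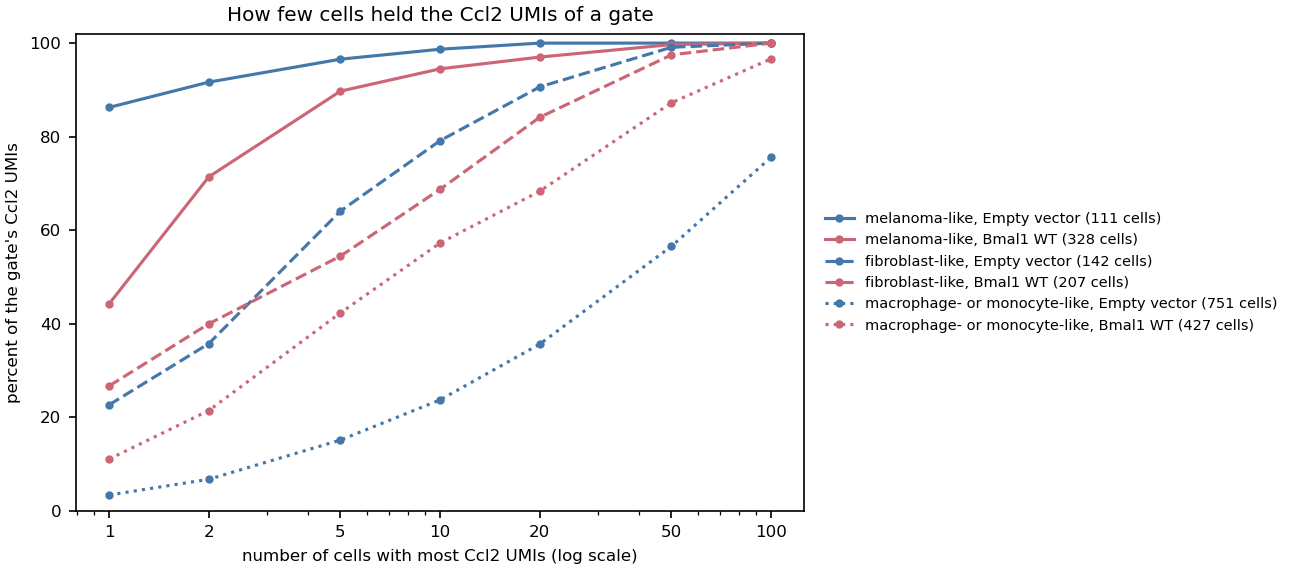
Percent of a gate's Ccl2 UMIs (vertical axis) held by the 1 to 100 cells with most of them (horizontal axis, log scale), for 3 gates (line styles) and both libraries (colours). A single cell held 86.3% of the Empty vector melanoma-like UMIs, whereas 10 cells held 23.7% of those in Empty vector macrophage- or monocyte-like cells.

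Dendritic-cell-like cells held the 1 gene of the set that passed the test. Ccl2 there stood at 28.7, 14.0 and 20.7 CPM in Empty vector (60, 19 and 36 UMIs) and at 2.19, 2.02 and 3.72 CPM in Bmal1 WT (4, 2 and 3 UMIs). The groups did not overlap, the Bmal1 WT values lay within the 0.779 to 6.65 CPM of T-cell-like replicates, and the level was lower in the library labelled Bmal1 WT, by a log2 fold change of -3.06 (SE 0.44, edgeR quasi-likelihood adjusted p = 0.0333). In this gate 4 of the 9 genes had enough UMIs to be tested and 1 was called lower, beside 0.716% of 7544 genes called in both directions and 0.424% called lower. The call was lost on leaving out any 1 of the 6 replicates, with edgeR adjusted p between 0.0517 and 0.107 and log2 fold changes between -3.29 and -2.76.

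Few cells carried that difference. Over the 2 libraries, 10 cells, all of Empty vector, held 81.4% of the dendritic-cell-like Ccl2 UMIs, and 2 of them carried several hashtags. Their summed macrophage or monocyte markers were at 980 CPM against 470 CPM in the other 804 cells. Over all dendritic-cell-like cells the same 11 markers, all detected, summed to 440.2 to 632 CPM per Empty vector replicate and 395 to 495 CPM per Bmal1 WT replicate, which overlap. Summed markers of 3 other cell types did not overlap between the groups. B cell markers, 5 of 8 detected, were at 36.1 to 53.6 CPM in Empty vector and 18.6 to 20.8 CPM in Bmal1 WT. Endothelial markers, 5 of 7 detected with Emcn at 0, were at 52.9 to 67.8 against 31.0 to 43.7 CPM, and neutrophil markers, 3 of 7 detected with S100a8 and S100a9 at 0, at 4.31 to 14.7 against 2.73 to 3.72 CPM. The part of these markers in the result was not tested. By sub-cluster, Ccl2 stood at 56.2, 23.6 and 33.8 CPM in the Cd209a dendritic-cell-like cells of Empty vector and at 0 in all 3 Bmal1 WT replicates. The Empty vector replicates held 43, 16 and 29 such cells and those of Bmal1 WT 13, 6 and 4, beside 173, 105 and 140 against 135, 81 and 57 dendritic-cell-like cells, and 10 of all 123 of them fell in the macrophage- or monocyte-like gate. In the Mgl2 and Epcam sub-cluster Ccl2 was at 43.4, 21.4 and 0 CPM against 3.48, 0 and 0, which overlap. In Empty vector h8 the Cd209a cells held 10 Ccl2 UMIs, beside 36 in the whole dendritic-cell-like gate. In mature dendritic-cell-like cells, with Ccr7 and Fscn1, Ccl2 was at 4.39, 3.19 and 1.84 CPM against 1.80, 2.64 and 11.7, which overlap.

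Ccl7, a second CCR2 ligand, followed Ccl2. Over 22 clusters of at least 20 cells, Ccl7 was the gene most like Ccl2 of 12722 genes (Pearson r of log2(CPM + 1) 0.918), with Pla2g7 (0.897) and Jun (0.890) after it, and the same 2 genes followed Ccl2 in the list for Ccl7 (0.882 and 0.869). The clusters share 2 libraries and differ in depth, so this is a description. In macrophage- or monocyte-like cells Ccl7 stood at 325, 6.20 and 246 CPM in Empty vector and at 114, 103 and 69.9 CPM in Bmal1 WT. Empty vector h7 was lowest and the other 2 Empty vector replicates were above all of Bmal1 WT (log2 fold change -1.03, SE 0.82, edgeR adjusted p = 0.631). Leaving out h7 gave -1.56 on the log2 scale (edgeR adjusted p = 0.0937).

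Fibroblast-like Ccl7 stood at 205, 28.9 and 35.5 CPM in Empty vector and at 0, 15.8 and 5.92 CPM in Bmal1 WT. The groups did not overlap, but 70 UMIs in all left the gene under the limit of 100 for a test. Melanoma-like Ccl7 stood at 0.965, 0 and 1.49 CPM in Empty vector and at 72.5, 8.65 and 1.19 CPM in Bmal1 WT. The high values were those of Bmal1 WT h3 and h5, and the log2 fold change of 4.42 (SE 1.47) had an unadjusted p of 0.0137 and an edgeR adjusted p of 1.0. In that library 10 cells held 87.5% of the 240 Ccl7 UMIs.

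Ccl8 was counted in the fewest cells. In macrophage- or monocyte-like cells it stood at 1.03, 36.0 and 1.60 CPM in Empty vector and at 159, 337 and 0 CPM in Bmal1 WT, so the groups overlapped. Behind these values were 6 Empty vector cells with 40 UMIs and 11 Bmal1 WT cells with 764 UMIs, of which 1 cell held 337. The fitted log2 fold change of 4.39 (SE 1.47) had an unadjusted p of 0.0161 and an edgeR adjusted p of 0.328. Nearly all of it lay in 1 sub-cluster of 29 cells led by C1q genes and Retnla, where 1 Empty vector cell held 29 UMIs and 7 Bmal1 WT cells held 738. Fibroblast-like cells were the other source, at 43.7, 4.81 and 48.4 CPM in Empty vector and at 33.4, 15.8 and 0 CPM in Bmal1 WT. Over all cells of each library they held 56.6% of 113 Ccl8 UMIs in Empty vector and 4.31% of 812 in Bmal1 WT. Macrophage- or monocyte-like cells held 35.4% and 94.1%. The genes most like Ccl8 over clusters were Ctsk (r = 0.906), Retnla (0.846) and Gas6 (0.807).

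Ccl12, the mouse CCR2 ligand whose gene neighbours Ccl8, stood at 197, 52.1 and 98.1 CPM in Empty vector macrophage- or monocyte-like cells and at 159.8, 44.3 and 27.2 CPM in those of Bmal1 WT. The ranges overlapped over most of their length (log2 fold change -0.55, SE 0.63, edgeR adjusted p = 0.752). Fibroblast-like cells of the 6 replicates held 0 Ccl12 UMIs. The genes most like Ccl12 were Ms4a7 (r = 0.955), a macrophage membrane gene, Tlr8 (0.947) and Dpep2 (0.946).

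Ccl24 varied more between replicates than between groups. In macrophage- or monocyte-like cells it stood at 119.8, 4572 and 616 CPM in Empty vector and at 518, 885 and 1948 CPM in Bmal1 WT. Empty vector held both the lowest and the highest replicate (log2 fold change -0.66, SE 1.04, edgeR adjusted p = 0.831). Without Empty vector h7 the log2 fold change turned to 1.60 (edgeR adjusted p = 0.286). In h7, 930 of 3685 Ccl24 UMIs came from 3 cells of 1 inflammatory sub-cluster. The C1q macrophage-like cells held Ccl24 at 318, 5310.1 and 1041 CPM in Empty vector and at 1954, 844 and 6080.2 CPM in Bmal1 WT. This set joins a sub-cluster of 211 cells, led by S100a8, with the one of 29 cells. In the larger one 4 of the 8 C1q macrophage markers were raised (C1qb, Mrc1, Apoe and Trem2, not C1qa or C1qc), and in the smaller one all 8 were. The genes most like Ccl24 over clusters were Csf1r (r = 0.927), Clec4a2 (0.915) and Fcgr4 (0.911).

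**Figure D3:**
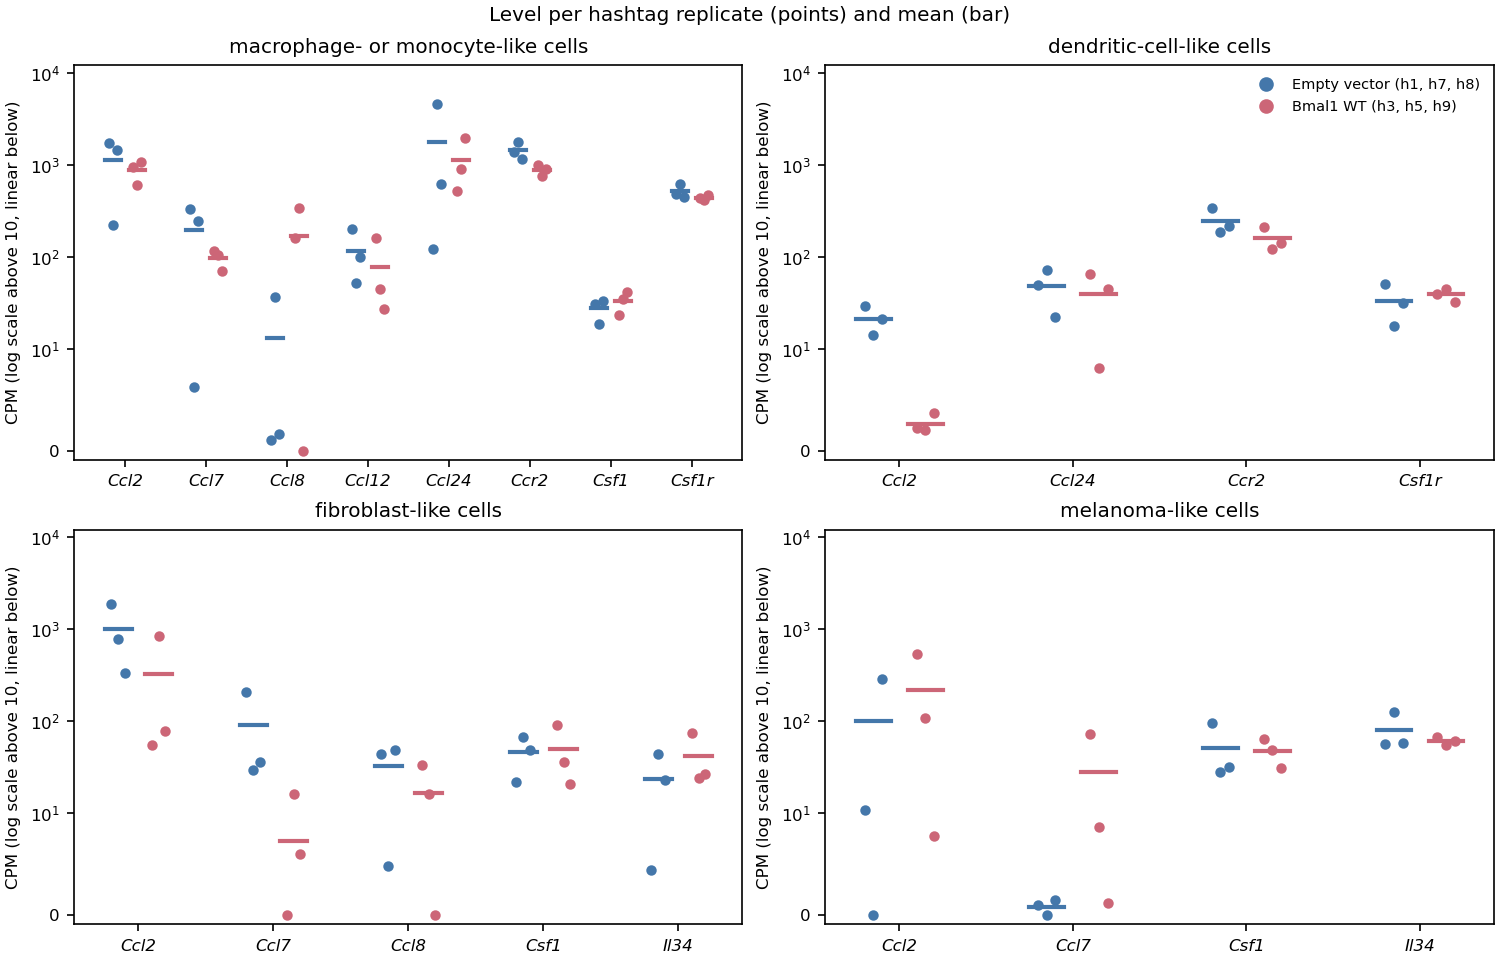
CPM of each gene in each hashtag replicate (points, log scale above 10 and linear below) and the mean of 3 replicates (bar) in 4 gates, Empty vector in blue and Bmal1 WT in red. Ccr2 in macrophage- or monocyte-like cells and Ccl2 in dendritic-cell-like cells show no overlap between the groups, and the Ccl24 points of Empty vector span 119.8 to 4572 CPM.

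The source of each ligand was then given as the share of a replicate's UMIs found in each gate. The macrophage- or monocyte-like share of Ccl2 was 89.6%, 46.2% and 76.1% for Empty vector and 67.0%, 47.6% and 94.7% for Bmal1 WT. Fibroblast-like cells held 7.63%, 42.5% and 2.93% against 0.691%, 13.9% and 2.96%, and melanoma-like cells 0.392%, 0% and 16.3% against 31.9%, 38.1% and 1.48%. The shares of these 3 gates overlapped between the groups, whereas all other cells together held 2.34%, 11.3% and 4.70% against 0.428%, 0.463% and 0.910%, which do not overlap and were not tested. Among those other cells, the dendritic-cell-like ones described above held 60, 19 and 36 Ccl2 UMIs per Empty vector replicate, against 4, 2 and 3. Mast-cell- or basophil-like ones held 50, 20 and 120, against 2, 0 and 0. These UMIs came from gates of 5, 4 and 4 mast-cell- or basophil-like cells, against 1, 0 and 1. The part of either gate in these shares was not tested. Such shares follow how many cells of each gate were captured as well as their levels, and melanoma-like cells numbered 35, 5 and 21 over the Empty vector replicates, against 30, 82 and 26. They also leave out cells without exactly 1 hashtag. Replicates held 14, 8 and 12 of 142 Empty vector and 19, 9 and 14 of 207 Bmal1 WT fibroblast-like cells. Over all cells of the Empty vector and Bmal1 WT libraries, fibroblast-like cells held 21.2% and 20.9% of Ccl2 and 15.6% and 22.6% of Ccl7. Macrophage- or monocyte-like cells held 70.2% and 51.7% of Ccl2 and 74.2% and 48.7% of Ccl7.

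Macrophage- or monocyte-like cells held a mean of 98.1% ± 1.05 of Ccl12 UMIs in Empty vector and 97.5% ± 1.79 in Bmal1 WT, and 89.6% ± 11.9 and 95.6% ± 4.55 of Ccl24 UMIs (SD, n = 3 each). Melanoma-like cells held 0.186%, 0% and 0.542% of Ccl7 in Empty vector, against 35.2%, 26.7% and 3.39%. These groups did not overlap, and the 2-sided exact permutation p of 0.10 was the smallest that 3 against 3 allows. Over the 18 shares tested, Benjamini-Hochberg adjusted p was 1.0 for each. All cells outside the 3 gates held 7.46%, 54.2% and 14.1% of Ccl7 in Empty vector against 0.529%, 1.14% and 1.69%. These shares did not overlap and were not tested. Among those cells, mast-cell- or basophil-like ones held 79, 9 and 72 Ccl7 UMIs in Empty vector, against 0 in each Bmal1 WT replicate.

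**Figure D4:**
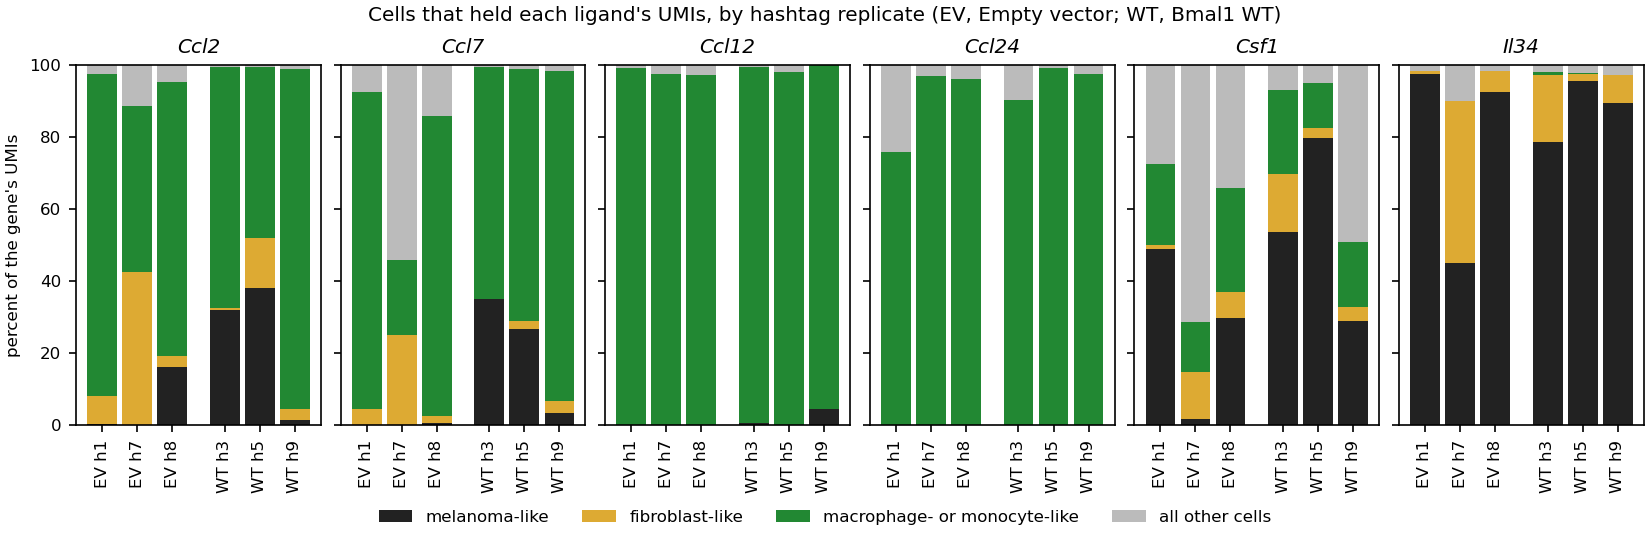
Percent of each ligand's UMIs (vertical axis) in melanoma-like, fibroblast-like, macrophage- or monocyte-like and all other cells, 1 bar per hashtag replicate. Ccl12 bars are almost wholly macrophage- or monocyte-like in all 6 replicates, and the melanoma-like part of Il34 is smallest in Empty vector h7 and largest, 97.5%, in Empty vector h1.

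Csf1, the macrophage colony stimulating factor gene, stood at 94.0, 27.7 and 31.4 CPM in the melanoma-like cells of Empty vector and at 63.2, 47.7 and 30.9 CPM in those of Bmal1 WT. The 3 Bmal1 WT values lay inside the Empty vector range (log2 fold change -0.32, SE 0.44, edgeR adjusted p = 1.0). Fibroblast-like Csf1 stood at 21.8, 67.4 and 48.4 CPM against 90.0, 35.5 and 20.7, on 85 UMIs, too few for a test. Macrophage- or monocyte-like Csf1 stood at 30.6, 18.6 and 32.5 CPM against 23.4, 34.2 and 41.4 (log2 fold change 0.17, SE 0.28, edgeR adjusted p = 0.842). Means of 51.0 ± 37.3, 45.9 ± 22.9 and 27.3 ± 7.55 CPM in Empty vector for these 3 gates did not differ beyond their spread. T-cell-like cells, another known source, held Csf1 at 31.3, 45.9 and 26.2 CPM in Empty vector and at 9.11, 9.45 and 61.6 CPM in Bmal1 WT, where h9 was highest of all 6 (log2 fold change -0.68, SE 0.53, edgeR adjusted p = 0.472). Closest to Csf1 over clusters were Dmxl2 (r = 0.889), 2010111I01Rik (0.835) and Mindy1 (0.816).

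Il34, the second CSF1R ligand, stood at 55.9, 125 and 56.8 CPM in the melanoma-like cells of Empty vector and at 65.9, 55.0 and 60.5 CPM in those of Bmal1 WT. The value of 125 CPM came from 9 UMIs in the 5 cells of h7, and the other 5 replicates lay within 55.0 to 65.9 CPM (log2 fold change -0.09, SE 0.29, edgeR adjusted p = 1.0). Fibroblast-like Il34 stood at 4.37, 43.3 and 22.6 CPM in Empty vector and at 74.5, 23.7 and 26.6 CPM in Bmal1 WT, on 61 UMIs. Melanoma markers summed to 236 to 395 CPM in fibroblast-like cells of Empty vector and 200.5 to 296 CPM in those of Bmal1 WT, with Erbb3, Mlana, Dct and Tyrp1 at 0, and their part in this level was not tested. Macrophage- or monocyte-like cells held 0 Il34 UMIs in the Empty vector library, with an upper Poisson 95% bound of 0.607 CPM, and 2 in the Bmal1 WT library. The genes most like Il34 were Slc18b1 (r = 0.972), Dag1 (0.945) and Enox1 (0.944).

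When all cells of a replicate were summed as in a bulk sample, Il34 stood at 10.0, 3.67 and 11.9 CPM in Empty vector and at 15.7, 31.9 and 24.5 CPM in Bmal1 WT. The groups did not overlap (log2 fold change 1.46, SE 0.45, unadjusted p = 0.0152, edgeR adjusted p = 0.157). In such sums fewer cells of a type and less RNA per cell cannot be told apart, and melanoma-like cells, which held most Il34 in 5 of 6 replicates, differed in number between replicates. All 9 genes were tested in these sums and none was called, beside 0.0% of 12042 genes. Without adjustment, edgeR gave 24.4% of genes a p under 0.05, 3 of the 9 among them, and DESeq2 called 985 genes with adjustment, Il34 among them (adjusted p = 0.0292).

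Ccr2, the receptor that marks recruited monocytes, stood at 1384, 1743 and 1152 CPM in the macrophage- or monocyte-like cells of Empty vector and at 977, 756 and 895 CPM in those of Bmal1 WT. Every Empty vector replicate was above every Bmal1 WT replicate, at means of 1427 ± 298 and 876 ± 112 CPM (SD, n = 3 each). The log2 fold change was -0.70 (SE 0.17), with an unadjusted p of 0.0031 that did not pass adjustment over 7236 genes (edgeR adjusted p = 0.303). Leaving out 1 replicate at a time gave log2 fold changes of -0.83 to -0.53. Closest to Ccr2 over clusters were Pycard (r = 0.934), an inflammasome adaptor, Bin2 (0.892) and Ncf4 (0.891).

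In this gate 8 of the 9 genes were tested and none was called, beside 0.0% of all genes. Without adjustment 2 of the 8, Ccr2 and Ccl8, had an edgeR p under 0.05, beside 12.3% of 7236 genes, and DESeq2 called 6 genes with adjustment, none of them in the set. The median log2 fold change of the 8 was -0.46, beside -0.04 over all genes tested. Summed dissociation or stress genes in these cells were at 11207 to 13630 CPM in Empty vector and 9140 to 10945 CPM in Bmal1 WT, which do not overlap, and neutrophil markers reached 348 and 1842 CPM in Bmal1 WT h5 and h9, against 76.1 to 122 CPM in Empty vector. Melanoma markers, at 3.79 to 7.47 against 9.06 to 29.2 CPM, and fibroblast markers, at 5.33 to 10.7 against 11.2 to 14.2 CPM, did not overlap either, nor did mast cell or basophil markers, at 1.07 to 6.20 against 0 to 0.467 CPM. Their part in the Ccr2 values was not tested.

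By sub-cluster, Ccr2 stood at 2314, 2063 and 1757 CPM in the C1q macrophage-like cells of Empty vector and at 1365, 736 and 1179 CPM in those of Bmal1 WT (shown in the plot of monocyte and macrophage sub-clusters). These groups did not overlap, nor did those of Arg1 or Nos2 inflammatory cells, at 994, 2668 and 876 CPM against 854, 607 and 696. In classical monocyte-like cells, with Ly6c2 and Plac8, Ccr2 stood at 1659, 813 and 1224 CPM against 1116, 1007 and 1314, which overlap. In the sub-cluster led by Nxpe4 and Ace it stood at 1199, 985 and 866 CPM against 1019, 887 and 832, which also overlap. The C1q macrophage-like cells also held Ccl2 without overlap, at 674, 346 and 1036 CPM against 243, 79.8 and 143. In their sub-cluster of 211 cells, with C1qa and C1qc not raised, Ccr2 stood at 2334, 2019.5 and 1870 CPM against 1431, 1282 and 1101, with no overlap. In that of 29 cells Ccr2 stood at 1683.5, 2360 and 902 CPM against 1065, 370 and 1598, which overlap, with 1 to 15 cells per replicate. Sub-cluster values were not tested, since replicates held as few as 11 C1q macrophage-like and 9 classical monocyte-like cells.

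The make-up of the gate differed between replicates. Arg1 or Nos2 inflammatory cells made up 40.2%, 7.87% and 39.6% of the macrophage- or monocyte-like cells of Empty vector and 43.8%, 21.8% and 40.0% of those of Bmal1 WT. C1q macrophage-like cells made up 14.7%, 48.3% and 18.1% against 18.7%, 34.7% and 13.8%. Classical monocyte-like cells made up 25.2%, 13.5% and 27.3% against 12.3%, 8.91% and 16.3%, which overlap, and the part of these shares in the Ccr2 values of the gate was not tested. Empty vector h7, lowest in Ccl2 and Ccl7 and highest in Ccl24, had the smallest inflammatory and the largest C1q share of the 6 replicates. Within inflammatory cells Ccl2 stood at 2718, 59.3 and 1906 CPM in Empty vector and at 1827, 2780.3 and 2839.6 CPM in Bmal1 WT, with 7 cells behind the h7 value. In classical monocyte-like cells it stood at 1806, 129 and 1559 CPM against 979, 928 and 313, so the Empty vector means of both sets, 1561 ± 1363 and 1164 ± 905 CPM, did not differ beyond their spread.

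**Figure D5:**
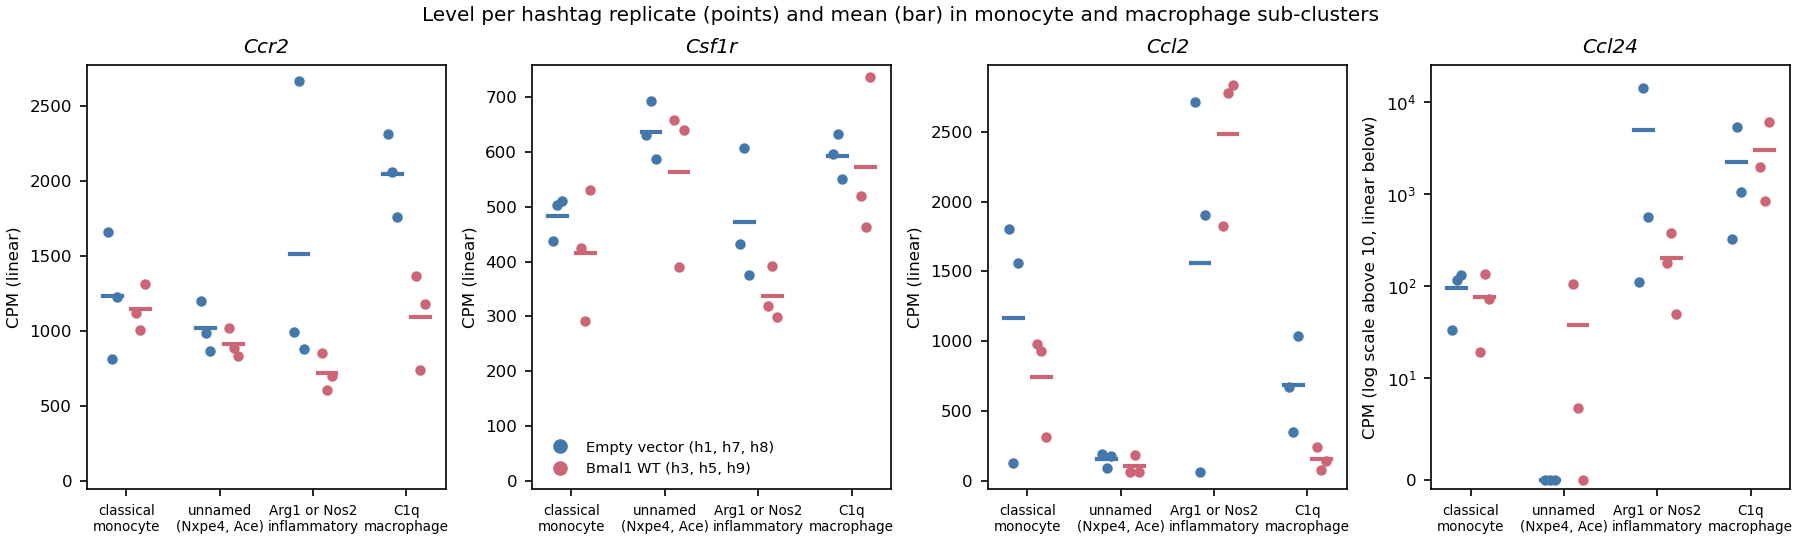
CPM of Ccr2, Csf1r, Ccl2 (linear axes) and Ccl24 (log scale above 10) in each hashtag replicate (points) and the mean of 3 replicates (bar) for 4 sets of monocyte and macrophage sub-clusters, Empty vector in blue and Bmal1 WT in red. In C1q macrophage-like cells all Ccr2 points of Empty vector, 1757 to 2314 CPM, lie above those of Bmal1 WT, 736 to 1365 CPM.

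Among dendritic-cell-like cells, Ccr2 stood at 335, 185 and 216 CPM in Empty vector and at 211, 121 and 142 CPM in Bmal1 WT, which overlap (log2 fold change -0.62, SE 0.26, edgeR adjusted p = 0.255). The Cd209a sub-cluster had the highest level, at 1124, 1305 and 902 CPM against 1052, 608 and 1506. The Mgl2 and Epcam sub-cluster ran the other way, at 0, 35.3 and 7.37 CPM in Empty vector and at 228, 409 and 167 CPM in Bmal1 WT, with no overlap. Csf1r in the same cells was at 16.0, 16.4 and 24.0 CPM against 78.3, 172 and 118, also with no overlap. The contrast between this sub-cluster and the macrophage- or monocyte-like cells was not tested.

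Outside the myeloid gates, NK-cell-like cells held Ccr2 at 792, 709.6 and 637 CPM in Empty vector and at 519.6, 403 and 787 CPM in Bmal1 WT. Bmal1 WT h9 reached the Empty vector range (log2 fold change -0.35, SE 0.18, edgeR adjusted p = 0.473, beside 0.252% of 6359 genes called). T-cell-like cells held it at 139, 279 and 166 CPM in Empty vector and at 112, 30.2 and 99.8 CPM in Bmal1 WT, with no overlap (log2 fold change -1.25, SE 0.36, edgeR adjusted p = 0.0786, beside 2.17% of 8009 genes called). In these cells macrophage or monocyte markers, at 418 to 521 against 259 to 407 CPM, dissociation or stress genes, at 3640 to 4566 against 2834 to 3511 CPM, and mast cell or basophil markers, at 1.29 to 13.2 against 0 to 0.945 CPM, did not overlap between the groups either, and their part in the Ccr2 values was not tested. The T-cell-like cluster led by Il17a held 95, 90 and 74 of 471, 240 and 349 cells, against 30, 10 and 8 of 183, 109 and 73. There Ccr2 stood at 495, 536 and 94.0 CPM against 36.1, 156 and 387, which overlap. Among clusters of this gate, only the one led by Cd8b1 held Ccr2 without overlap, at 222, 99.3 and 355 CPM against 99.2, 70.3 and 78.6. The part of this make-up was not tested. Over all cells Ccr2 stood at 552, 582 and 411 CPM against 384, 136 and 251, also with no overlap (means 515 ± 91.6 and 257 ± 124 CPM, edgeR adjusted p = 0.177). Summed macrophage or monocyte markers did not overlap there either (1613 to 2531 against 1319 to 1606 CPM), nor did T cell markers (1042 to 1310 against 446 to 782 CPM). The same held for dissociation or stress genes (5290 to 6476 against 3696 to 5252 CPM) and mast cell or basophil markers (24.4 to 95.4 against 1.63 to 17.4 CPM). The part of these sums in the Ccr2 values was not tested. By gate, the order of mean Ccr2 in Empty vector was macrophage- or monocyte-like (1427 ± 298 CPM), NK-cell-like (713 ± 77.2), dendritic-cell-like (245 ± 79.3) and T-cell-like (194 ± 74.2), and the last 2 did not differ beyond their spread.

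Csf1r, the receptor gene for both growth factors, lies on chromosome 18, where it overlaps Mir6983 on its own strand and Hmgxb3 on the other. It stood at 477, 617 and 445 CPM in the macrophage- or monocyte-like cells of Empty vector and at 433, 413 and 466 CPM in those of Bmal1 WT. The groups overlapped by the 466 CPM of Bmal1 WT h9 (log2 fold change -0.23, SE 0.15, edgeR adjusted p = 0.564). By sub-cluster, Csf1r stood at 437, 503 and 511 CPM in the classical monocyte-like cells of Empty vector and at 597, 632 and 552 CPM in its C1q macrophage-like cells. In Bmal1 WT it stood at 426, 292 and 531 CPM and at 519, 463 and 736 CPM, so the C1q macrophage-like value was the higher one in each of the 6 replicates, a difference that was not tested. Dendritic-cell-like Csf1r was lower, at 50.2, 17.7 and 31.0 CPM in Empty vector and 39.4, 44.5 and 32.3 CPM in Bmal1 WT (log2 fold change 0.20, SE 0.33, edgeR adjusted p = 0.800). NK-cell-like cells of the 6 replicates held 0 Csf1r UMIs. In fibroblast-like cells Csf1r was counted in 1 replicate, Empty vector h8 (25.8 CPM), where macrophage or monocyte markers summed to 807 CPM. The genes most like Csf1r were Fcgr1 (r = 0.983), Clec4a3 (0.975) and Fcgr4 (0.971).

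In fibroblast-like cells 1 of the 9 genes, Ccl2, was tested and not called, beside 0.0% of 3079 genes (6.72% with an unadjusted edgeR p under 0.05, and 7 genes by DESeq2). In melanoma-like cells 4 were tested, Ccl2, Ccl7, Csf1 and Il34, and none was called, beside 0.0% of 8904 genes (3.99% without adjustment, and 4 genes by DESeq2). Only Ccl7 of those 4 had an unadjusted p under 0.05.

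Other receptors, ligands and signalling genes of the same pathways, 25 in all, passed no test in any gate. In macrophage- or monocyte-like cells 16 were tested, 10 with a fitted value below 0 and 6 above, and 1 had an unadjusted edgeR p under 0.05. This was Tyrobp, an adaptor of myeloid receptors, at 1335, 1166 and 1204 CPM in Empty vector and 1454, 1471 and 1668 CPM in Bmal1 WT, with no overlap (log2 fold change 0.31, SE 0.11, edgeR adjusted p = 0.345). In dendritic-cell-like cells 15 were tested and 4 had an unadjusted p under 0.05, all with lower values in Bmal1 WT, beside 17.7% of 7544 genes. Among them Ccr1, a receptor for several inflammatory chemokines, stood at 159, 240.3 and 187 CPM against 121, 69.8 and 93.1, with no overlap (log2 fold change -1.02, SE 0.22, edgeR adjusted p = 0.0783). The others were Ccl4 (-0.93 on the log2 scale), Csf2rb (-0.33) and Tyrobp (-0.34).

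In fibroblast-like cells 2 pathway genes were tested, and Ccl11, an eotaxin, stood at 1477, 1073 and 1472 CPM against 794, 1125 and 825, which overlap (log2 fold change -0.55, SE 0.24, edgeR adjusted p = 0.698). In melanoma-like cells 6 were tested, and Ptprz1, a second receptor of IL-34, stood at 90.7, 55.4 and 38.9 CPM against 9.26, 22.3 and 5.93, with no overlap (log2 fold change -2.24, SE 0.50, unadjusted p = 0.0013, edgeR adjusted p = 1.0). The 55.4 CPM of Empty vector h7 rested on 5 cells. The 10 melanoma markers summed over these cells did not overlap either, at 1959, 1330 and 1482 CPM in Empty vector and 697, 1083 and 821 CPM in Bmal1 WT, and their part in the Ptprz1 values was not tested.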

How the data were processed

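The authors deposited raw UMI counts per gene and cell barcode for each library, made with Cell Ranger 6.1.2 per the file headers and mm10 per the labels, with no normalization. Counting settings are not given in the sources used. The Bmal1 bHLH files repeat the Bmal1 WT files in 3 of 3 parts and were not used, so that group was not analysed here.

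Cells with at least 200 genes and at most 20% mitochondrial UMIs were kept, and replicates were assigned by a 2-component Gaussian mixture on log hashtag counts (scikit-learn 1.9.0). Cells with several hashtags were left out of replicates, and no doublet caller was run. Cells of the 2 libraries were clustered jointly (scanpy 1.11.5) without the 9 genes (2000 variable genes, 30 components, 15 neighbours, Leiden resolution 1, igraph 0.11.9). A gate took the class with most markers at least 2-fold raised, with 3 or more, a rule set after the clusters had been seen. A cluster or sub-cluster stayed unnamed where another class had more markers among its top 10 genes by fold, or where its cells were shallow with none of its class's markers there. The 3 unnamed clusters entered no gate. Myeloid cells were clustered again into 16 sub-clusters.

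UMIs were summed per replicate and gate, and genes with at least 100 UMIs were tested with edgeR 4.0.16 (quasi-likelihood, scaled by total UMIs, Benjamini-Hochberg at 0.05, R 4.3.3). SE was the size of the log2 fold change divided by the square root of F. On simulated 4-fold changes in 200 genes the step recovered 100% in macrophage- or monocyte-like cells and 92.5% in all cells. Those counts were drawn with the trended dispersion, without each gene's own spread between replicates. The recovery therefore does not carry over to genes that varied widely between replicates, such as Ccl8, Ccl24 and Ccl7. DESeq2 1.42.0 was an alternative. Shares were compared by 2-sided exact permutation (SciPy 1.17.1). The 9 genes, the marker and pathway lists and the tests were chosen with earlier results of these data known. All 9 genes are named in each gate, pathway genes where the unadjusted p was under 0.05, and the 3 genes most like each by Pearson correlation over clusters. The NK-cell-like and T-cell-like fits were added after the data were seen. A few marker, pathway and genotype items are not reported here.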

Additional observations from a re-analysis of the deposited data

Results flagged for a closer look

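Some values stood in cells that none of the gates tested above holds. These cells do enter the sums over all cells and the shares of all other cells. Mast-cell- or basophil-like cells, 16 in the Empty vector library and 4 in the Bmal1 WT library, held Ccl2 at 2693 CPM and Ccl7 at 2008 CPM in Empty vector, from 12 and 6 cells. Csf1 was at 395 CPM in their Empty vector cells and at 3632 CPM in the 4 Bmal1 WT cells, where 2 cells held 80 UMIs.

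Unnamed cluster 1, with NK cell markers, held Ccr2 at 789 CPM (Empty vector) and 606 CPM (Bmal1 WT). Unnamed cluster 19, with S100b and Egfl7 raised, held Ccl2 at 70.0 CPM (Empty vector) and 29.4 CPM (Bmal1 WT), with Il34 at 40.5 CPM in the latter. All of these had a lower Poisson 95% bound above the upper bound for the same gene in T-cell-like cells of the same library. By hashtag replicate, Ccr2 in cluster 1 stood at 915, 631 and 674 CPM in Empty vector and at 632, 591 and 636 CPM in Bmal1 WT, which overlap. Cluster 19 held 0 to 1 Ccl2 UMIs per Empty vector replicate and 0 to 4 per Bmal1 WT replicate. No test was run in these cells alone.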

How the results depend on the processing

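No paired analysis was possible because the 2 groups share no hashtag number. Leaving out 1 replicate at a time gave 0 to 7 genes called in dendritic-cell-like cells (0 of the set), 0 to 1 in fibroblast-like, 0 to 2 in melanoma-like, 0 to 68 in NK-cell-like and 0 to 355 in T-cell-like cells. DESeq2 called 6 genes in macrophage- or monocyte-like, 172 in dendritic-cell-like, 7 in fibroblast-like, 4 in melanoma-like, 80 in NK-cell-like, 293 in T-cell-like and 985 in all cells, with 1 of the set (Il34) in the last. It gave dendritic-cell-like Ccl2 a log2 fold change of -2.97 (SE 0.67, unadjusted p = 9.8e-06) and no adjusted p. TMM scaling called 91 genes in dendritic-cell-like, 10 in NK-cell-like and 285 in T-cell-like cells. The stricter cell filter called 28 in NK-cell-like cells, and hashtags by centred log count called 3 there and 266 in T-cell-like cells. With no filter on genes 117, 463, 184, 50, 168 and 832 genes were called in macrophage- or monocyte-like, dendritic-cell-like, fibroblast-like, melanoma-like, NK-cell-like and T-cell-like cells, among them 2 of the set in macrophage- or monocyte-like cells (Ccr2 and Ccl8), 2 in dendritic-cell-like (Ccl2 and Ccr2), 3 in fibroblast-like, 1 in melanoma-like (Ccl7) and 2 in T-cell-like cells, and the cause was not tested. The number of genes tested without the filter is not given here. The counts of the set thus have no share over all genes beside them and are not read as a result. Dendritic-cell-like Ccl2 kept its call under TMM, the stricter filter, Leiden resolution 2, centred hashtags, variable genes with the set, and no filter (edgeR adjusted p 2.4e-05 to 0.0337).

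Signs that turned belonged to values that were not called. Without Empty vector h1 macrophage- or monocyte-like Ccl2 was 0.083 and Ccl12 0.075 on the log2 scale, all-cell Ccl2 0.080 and Ccl12 0.22, and melanoma-like Csf1 0.62. Without h7 Ccl24 was 1.60 in macrophage- or monocyte-like, 0.19 in dendritic-cell-like and 1.27 in all cells, dendritic-cell-like Csf1r -0.070 and melanoma-like Il34 0.098. Without Bmal1 WT h3 melanoma-like Ccl2 was -1.05, without h5 dendritic-cell-like Ccl24 was 0.25, and without h9 macrophage- or monocyte-like Csf1 was -0.0015. Leave-one-out ranges were -0.85 to 0.083 (Ccl2), -1.71 to 0.075 (Ccl12), -1.33 to 1.60 (Ccl24) and -0.0015 to 0.40 (Csf1) in macrophage- or monocyte-like cells, -0.89 to 0.25 (Ccl24) and -0.070 to 0.65 (Csf1r) in dendritic-cell-like cells, -0.72 to 0.62 (Csf1), -0.25 to 0.098 (Il34) and -1.05 to 4.44 (Ccl2) in melanoma-like cells, and -0.90 to 0.080 (Ccl2), -2.29 to 0.22 (Ccl12) and -1.27 to 1.27 (Ccl24) in all cells. Macrophage- or monocyte-like Csf1 was -0.045 with centred hashtags, -0.25 without the sub-cluster led by T cell genes and -0.13 over the whole library, Ccl24 was 0.0037 there and 0.067 in dendritic-cell-like cells over the whole library, and melanoma-like Csf1 was 0.14 at Leiden resolution 2, where Empty vector h7 held no cells.

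Differences in shares (Bmal1 WT minus Empty vector, percentage points) turned as follows. With each cell scaled to the same total, macrophage- or monocyte-like Ccl2 was 13.4 and Csf1 7.72, and fibroblast-like Ccl24 0.0064 and Il34 0.645. At Leiden resolution 2 melanoma-like Ccl7 was -0.0913 and Il34 -3.13. Over the whole library fibroblast-like Ccl7 was 7.02 and Ccl24 0.0394, and macrophage- or monocyte-like Ccl7 -25.5. Leave-one-out ranges were -19.2 to 0.564 (fibroblast-like Ccl2), -13.4 to 10.2 (macrophage- or monocyte-like Ccl2), -10.4 to 23.1 (Ccl7), -1.31 to 0.384 (Ccl12) and -0.847 to 9.76 (Ccl24) there, -0.0277 to 0.0216 (fibroblast-like Ccl24), -3.77 to 3.45 (Csf1) and -15.8 to 6.28 (Il34) there, and -7.22 to 19.0 (melanoma-like Il34).

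Few cells stand behind fibroblast-like and melanoma-like values, with as few as 5 in a replicate. With 3 replicates of 1 library each side, a p that misses its threshold does not show that levels were alike.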

Other observations

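In NK-cell-like cells, of 8 pathway genes tested, 4 had an unadjusted edgeR p under 0.05, beside 11.7% of 6359 genes, and none passed adjustment. Ccl5, a chemokine of cytotoxic cells, stood at 4127, 3533 and 5095 CPM in Empty vector and 4820, 6385 and 5953 CPM in Bmal1 WT (edgeR adjusted p = 0.198), which overlap. Ccl4 stood at 2057, 1790.0 and 833 CPM against 972, 971 and 1000.02, which also overlap. Ccl3 was among them too (log2 fold change -0.71). In T-cell-like cells, of 8 tested, 2 had an unadjusted edgeR p under 0.05, beside 22.5% of 8009 genes, and none passed adjustment. Of these, Cx3cr1, the fractalkine receptor gene, stood at 142, 67.7 and 84.5 CPM against 26.0, 83.2 and 44.9, and Cxcr4 at 509, 580.1 and 539 CPM against 518, 423 and 396.

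Over all cells, of 19 pathway genes tested, 7 had an unadjusted edgeR p under 0.05, beside 24.4% of 12042 genes, and none passed adjustment. Summed macrophage or monocyte, T cell and mast cell or basophil markers did not overlap between the groups in these sums, as given above. Their part in the values that follow was not tested. Csf2rb2, a receptor chain of the GM-CSF family, stood at 33.4 to 42.7 CPM in Empty vector and 18.2 to 28.9 CPM in Bmal1 WT, with no overlap (edgeR adjusted p = 0.152). Ccl4 stood at 675, 560.4 and 376 CPM against 329, 132 and 226, also with no overlap (edgeR adjusted p = 0.157). Ccl9 (log2 fold change -0.45), Csf2rb (-0.46) and Ccr1 (-0.64) were also among the 7. Cx3cl1, the fractalkine gene, was the 1 of the 7 with higher values in Bmal1 WT, at 5.39, 3.30 and 5.15 CPM against 9.51, 5.60 and 9.02, with no overlap (log2 fold change 0.78, edgeR adjusted p = 0.192).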
